A study of Mus musculus with 6 samples.

Results

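The WNT ligands, their receptors and co-receptors and the R-spondin system make up 41 of the 57010 genes in the count table. They were taken by gene symbol alone, as every Wnt, Fzd and Rspo gene, Lgr4, Lgr5 and Lgr6, and Lrp5, Lrp6, Ror1, Ror2 and Ryk. The table holds 19 ligands, 10 frizzled receptors, 2 LRP co-receptors, 3 receptors of the ROR and RYK type, 4 R-spondins and 3 LGR receptors. RNA was sequenced from bone marrow monocytes from the mandible and the femur of C57BL/6 mice (C57Bl/6J in the methods) aged 1 year, with 3 libraries per site (femur S13, S15 and S18, mandible S16, S19 and S23). The study used male and female mice and isolated monocytes by negative selection with a magnetic kit, so that cells are kept because they carry none of the kit's antibodies. The labels give no animal, sex or batch for a library and do not say that libraries came from separate mice, so p-values measure only the spread between these libraries.

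WNT proteins are secreted lipid-modified ligands. In the β-catenin branch of the pathway a WNT binds a frizzled receptor together with LRP5 or LRP6, which stabilizes β-catenin and lets it act with TCF/LEF factors at target genes. R-spondins bind LGR4, LGR5 or LGR6 and keep the ubiquitin ligases RNF43 and ZNRF3 from removing frizzled receptors, and so potentiate the signal. ROR1, ROR2 and RYK receive signals, WNT5A among them, that do not need β-catenin. In bone, WNT signals are best known for driving osteoblast formation, and WNT5A acting through ROR2 on osteoclast precursors promotes osteoclast formation.

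The mandibular-derived libraries held more transcripts of every class. Levels are given as CPM (counts relative to the library's total) scaled by TMM, a normalization that sets the bulk of genes equal between libraries. The 41 genes summed to 147 CPM ± 19.7 (SD, n = 3) in the femur and 436 CPM ± 104 (SD, n = 3) in the mandible, a ratio of 2.97. In bulk RNA, fewer cells of a type and less RNA per cell cannot be told apart. Per class the ratio of mandible to femur means was 10.5 for ligands, 7.56 for ROR1, ROR2 and RYK, 5.04 for R-spondins, 4.52 for LGR4 to LGR6, 3.41 for frizzled receptors and 1.91 for LRP5 and LRP6. Without S15 the ligand ratio was 31.0, and without S23 the ratios of R-spondins and of LGR4 to LGR6 were both 2.90. Summed ligands were at 2.76, 15.7 and 1.81 CPM in S13, S15 and S18 and at 46.0, 62.5 and 104 CPM in S16, S19 and S23. Every class sum was higher in each mandible library than in each femur library. S23 was the highest library for each class, and S15 the highest femur library for each class other than LRP5 and LRP6.

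**Figure D1:**
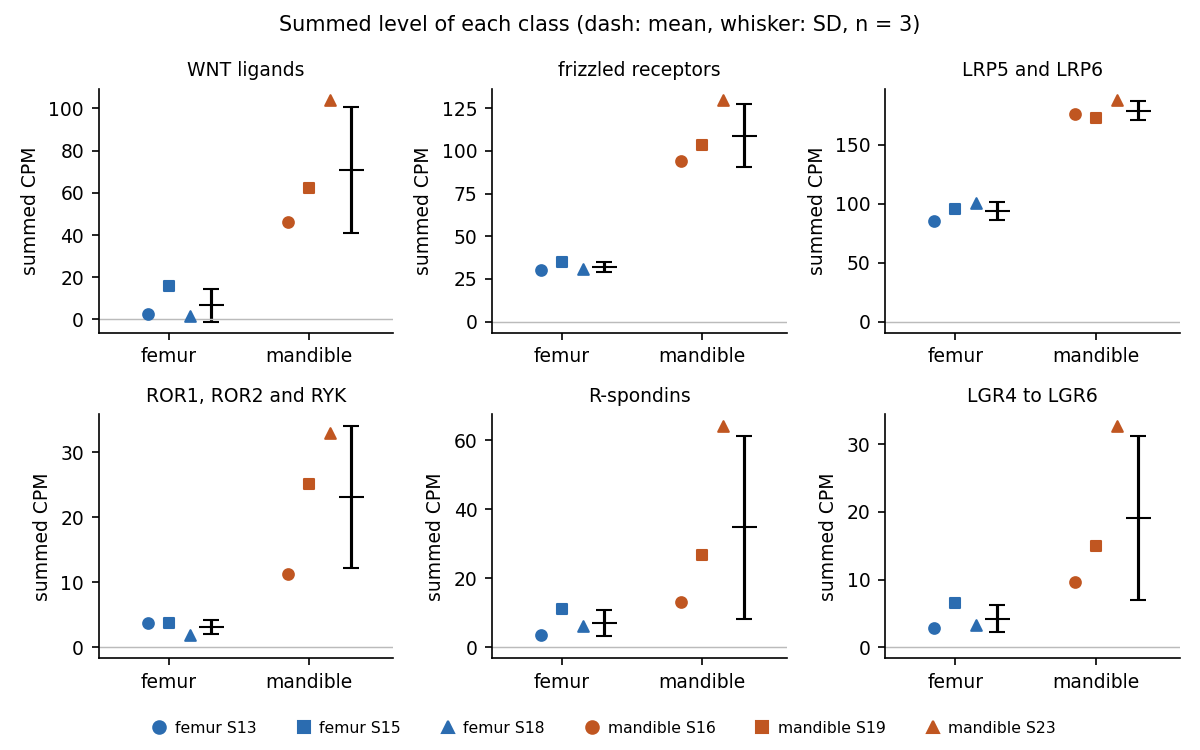
Summed CPM (TMM-scaled) of each class of WNT family genes on the y axis, by skeletal site. Points are libraries, and the dash and whisker beside them are the mean and SD of 3 libraries. All 6 classes are separated between sites, with ligands between 1.81 and 15.7 CPM in the femur and between 46.0 and 104 CPM in the mandible.

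Library S15 stood apart from the others. It had a count in 71.0% of all genes against 30.7 to 41.2% in the other 5 libraries, at 19808090 counts within a range of 15718782 to 25371474. It also had a count in 1128 of 2005 olfactory and vomeronasal receptor genes (56.3%), which are used mainly by sensory neurons, against 6 to 79 of them (0.299 to 3.94%) elsewhere. All 41 WNT family members and all 19 ligands had a count in S15, while S13 and S18 had 19 and 20 members and 3 and 4 ligands with a count. The mandible libraries S16, S19 and S23 had 10, 16 and 12 ligands with a count. Of 18 members at 0 counts in both S13 and S18, 14 were ligands, and 13 lay in S15 at or below 0.249 CPM per kilobase, the 95th percentile of the olfactory and vomeronasal genes in that library. Results are therefore given with and without S15. These receptor genes were chosen for comparison after the values were seen.

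**Figure D2:**
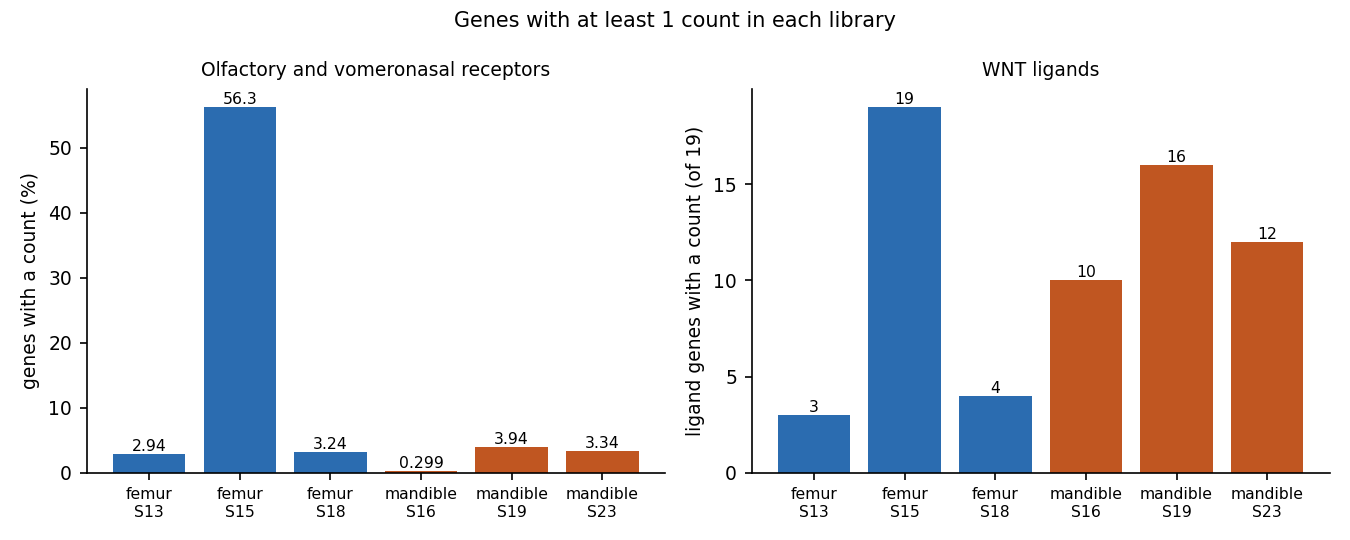
Left, percent of 2005 olfactory and vomeronasal receptor genes with at least 1 count in each library. Right, number of the 19 WNT ligand genes with at least 1 count, with S15 highest in both panels at 56.3% and 19 ligands.

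The monocyte markers Ly6c2, Ccr2, Csf1r, Itgam, Cd14, Fcgr1, Lyz2, F13a1, Ms4a6c, Mpeg1 and Cx3cr1 had counts in every library, with summed levels of 8469 to 15770 CPM in the femur and 7276 to 13365 CPM in the mandible, and 0 of 11 were called. Markers of some other cell types moved with the site, and those of others did not. Among all tested genes 3.88% were called higher in the mandible and 1.3% lower. Of 11 mesenchymal and osteoblast markers 10 were called higher in the mandible, with sums of 159 to 193 CPM in the femur and 7616 to 11780 CPM in the mandible. Of 10 dental epithelium markers 8 were called higher, with sums of 0.221 to 4.93 CPM and 5832 to 11440 CPM, and in the femur 7, 2 and 7 of the 10 were at 0 in S13, S15 and S18. All 6 skeletal muscle markers were called higher (3.14 to 16.4 against 1086 to 3598 CPM), as were 3 of 5 mural markers (4.20 to 8.43 against 49.1 to 160 CPM), 3 of 5 chondrocyte markers (2.61 to 14.97 against 61.9 to 143 CPM) and 1 of 5 Schwann cell markers (5.21 to 6.24 against 10.3 to 32.5 CPM). Endothelial markers had 0 of 7 called (52.1 to 69.5 against 41.5 to 58.3 CPM), B cell markers 0 of 5 (12.9 to 20.99 against 8.98 to 22.8 CPM) and T and NK cell markers 0 of 6 (32.2 to 72.0 against 41.8 to 87.9 CPM). Megakaryocyte markers had 5 of 6 called lower (549 to 877 against 72.7 to 105 CPM) and neutrophil markers 1 of 7 (3653 to 32403 against 3813 to 10182 CPM). Among the mandible libraries the mesenchymal, dental epithelium, muscle, mural and chondrocyte sums were highest in S23, which was also the highest for most WNT family genes. The part of these cells in the values below was not tested.

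Of the 41 members, 30 passed the filter on low counts and were tested with edgeR's quasi-likelihood test. At an adjusted p under 0.05 and a change of at least 2-fold, 6 were called higher in the mandible libraries (20%). They were the ligand Wnt5a, the receptors Fzd1 and Fzd6, the co-receptor Lrp6, the receptor Ror2 and the R-spondin Rspo4. Among all 18114 tested genes 3.88% were called higher. No member was called lower, against 1.3% of all tested genes, and 0 members were lower at an unadjusted p under 0.05 or were called lower by DESeq2, edgeR's exact test or limma-voom. The log2 fold change was above 0 for 28 of the 30 and below 0 for Rspo2 and Rspo3, with a median of 2.67 beside a median of -0.04 over all tested genes. At an unadjusted p under 0.05 there were 21 members, each of them higher in the mandible. All 3 mandible libraries lay above all 3 femur libraries for 20 of the 30 members (66.7%), against 12.7% of all tested genes, and below them for 0, against 11.5%. A member that passed the filter through the mandible libraries alone had to differ, and those that passed are not all members. Of the 6 called, Wnt5a, Ror2 and Rspo4 had 0 counts in S13 and S18 and 13, 7 and 11 counts in S15. They could pass only through the mandible libraries, so their direction was fixed. The same holds for Wnt7a, Wnt9a, Wnt3a, Wnt10b, Wnt16 and Ror1, which were tested and not called. The shares of members given here rest in part on such genes and are no support from them.

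The number called depended on the library set. Without S15, 32 members were tested and 11 were called higher, beside 5.11% of all genes tested in that fit: Wnt5a, Wnt7a, Wnt9a, Wnt3a, Fzd1, Fzd6, Ror2, Ror1, Rspo1, Rspo4 and Lgr6. Of these, Wnt5a, Wnt7a, Wnt9a, Wnt3a, Ror2, Ror1 and Rspo4 had 0 counts in both S13 and S18, and Lgr6 had 1. In that fit they passed the filter through the mandible libraries alone, so their direction was fixed. The 11 calls are therefore no further support beside the 5.11%. Of the members called here but not with S15, 4 lay in S15 above the 0.249 CPM per kilobase of the olfactory and vomeronasal genes. These were Wnt7a (0.930), Ror1 (0.288), Lgr6 (0.282) and Rspo1 (4.23 CPM per kilobase), while Wnt9a (0.166) and Wnt3a (0.0834) lay below it. Leaving out S15 thus also leaves out femur values above that level. There were 2, 3, 5 and 2 calls without S13, S18, S16 and S19, and 1 without S23. Calls over all genes, both directions together, also moved, from 938 to 509, 552, 764, 434 and 551 in these fits and to 1565 without S15. Among the members, Wnt5a was the only one called in each fit that left out 1 library.

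**Figure D3:**
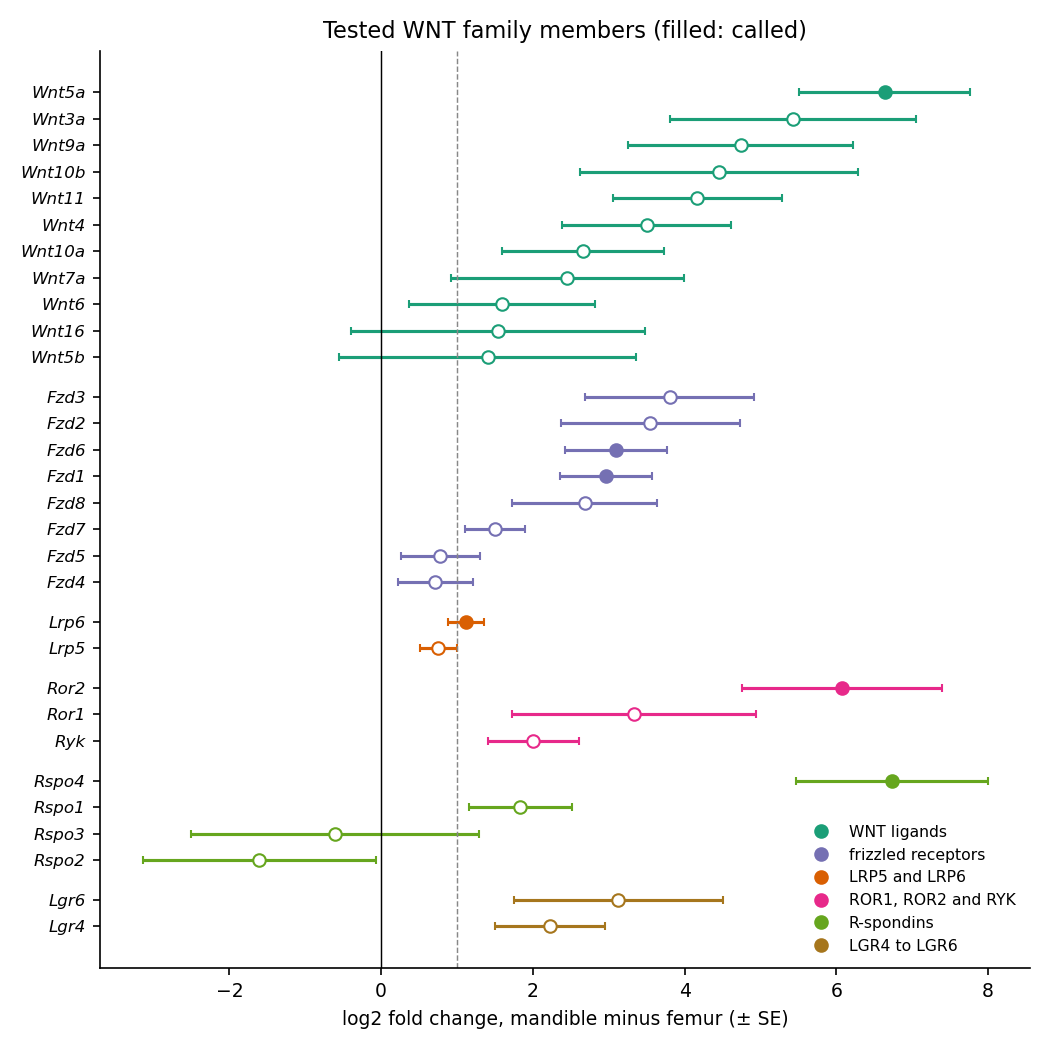
Log2 fold change (mandible minus femur, x axis) with its SE for the 30 tested members, grouped by class. Filled points are the 6 called members, the dashed line marks the 2-fold threshold, and Rspo2 and Rspo3 are the 2 points left of 0.

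Promoters from RefSeq (GRCm38.p6) were given for 28 members, among them Fzd1, Ror2 and Rspo4 of the 6 called. The 250 bases before the start are printed because these genes rose in the mandible, and capitals mark CTTTG or CAAAG, the core of the TCF/LEF word read on either strand. The windows are chr5:4758217-4758466 (minus strand) for Fzd1, chr13:53286125-53286374 (minus strand) for Ror2 and chr2:151842677-151842926 (plus strand) for Rspo4, and RefSeq places the Fzd1 start upstream of that in GENCODE M21.
Fzd1: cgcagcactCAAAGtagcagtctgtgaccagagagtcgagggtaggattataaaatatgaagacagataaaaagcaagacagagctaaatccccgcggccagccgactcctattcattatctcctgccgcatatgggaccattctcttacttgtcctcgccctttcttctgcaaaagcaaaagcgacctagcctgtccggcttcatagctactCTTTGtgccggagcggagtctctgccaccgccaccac
Ror2: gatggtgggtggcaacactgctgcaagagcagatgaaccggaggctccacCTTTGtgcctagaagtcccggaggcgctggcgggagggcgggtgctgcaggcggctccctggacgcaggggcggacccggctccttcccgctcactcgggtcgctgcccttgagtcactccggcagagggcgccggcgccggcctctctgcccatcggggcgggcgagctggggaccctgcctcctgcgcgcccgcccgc
Rspo4: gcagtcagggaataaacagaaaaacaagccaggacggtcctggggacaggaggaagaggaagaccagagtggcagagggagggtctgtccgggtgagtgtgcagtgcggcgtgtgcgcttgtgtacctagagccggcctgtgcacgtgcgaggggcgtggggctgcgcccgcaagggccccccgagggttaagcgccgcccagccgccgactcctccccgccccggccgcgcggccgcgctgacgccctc
The Fzd1 window holds 2 core words, the Ror2 window 1 and the Rspo4 window 0. The core word is in 48.6% of all 32851 promoters of this length and in 12 of 31 member promoters. The longer word CTTTGAT or ATCAAAG, which contains the core, is in 3.21% of all promoters and in none of these 3. In letters, Ror2 and Rspo4 are rich in G and C (73.2 and 69.6%), and Fzd1 at 51.2% is near the median of 52.4% over all promoters. A match of letters is not a binding site.

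Among the ligands, 11 of 19 were tested and 1 was called. Wnt5a is a ligand known mainly for signals that do not need β-catenin. By qRT-PCR the study reported only a trend to more Wnt5a in mandibular-derived monocytes, which was not significant. In the sequenced libraries Wnt5a was at 0, 0.599 and 0 CPM in S13, S15 and S18 and at 9.16, 21.3 and 32.3 CPM in S16, S19 and S23. It was thus without a count in 2 femur libraries, and the sites did not overlap. It could pass the filter only through the mandible libraries, so its direction was fixed. Its log2 fold change was 6.64 ± 1.13 (SE, edgeR adjusted p = 0.00557), and the exact permutation test gave p = 0.1, the smallest that 3 libraries against 3 allow and the value for every called member. With S13 and S18 set at a floor of 3 counts each, the mandible mean was at least 70.0-fold above the femur mean when S15 was kept at its value and at least 140-fold when S15 was left out. Wnt5a (ENSMUSG00000021994) lies at chr14:28504750-28527448 on the plus strand (GRCm38, GENCODE M21), where its exons share 358 bases with Gm2670 on the other strand, and the sources used here do not say whether counting used strand.

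Wnt11, another ligand known mainly outside the β-catenin branch, was at 1.602, 0.783 and 0 CPM in S13, S15 and S18 and at 4.70, 10.9 and 27.0 CPM in S16, S19 and S23. The sites did not overlap, but the difference missed the threshold (log2 fold change 4.17 ± 1.12 SE, adjusted p = 0.0574). The exons of Wnt11 share 364 bases with Gm8398 on the other strand. Wnt5a and Wnt11 together held 18.5 to 44.5% of the ligand total per kilobase in the mandible libraries, and 43.5, 5.33 and 0% of the much smaller total in S13, S15 and S18, which overlaps.

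None of the 9 other tested ligands was called, and their adjusted p ran from 0.0901 to 0.830. Wnt3a, known as an activator of the β-catenin branch, had log2 fold change 5.43, Wnt9a 4.74, Wnt10b 4.45, Wnt4 3.50, Wnt10a 2.66, Wnt7a 2.45, Wnt6 1.59, Wnt16 1.54 and Wnt5b 1.40. Of the 19 ligands, 10 had more than 3 counts in every mandible library, and 6 of these 10 (Wnt5a, Wnt7a, Wnt9a, Wnt3a, Wnt10b and Wnt16) had 0 counts in both S13 and S18. In S15 the same 6 genes had 13, 64, 12, 5, 6 and 26 counts. Without S15, the mandible means were at least 36.4-fold higher for Wnt7a, 34.4-fold for Wnt9a, 24.3-fold for Wnt3a and 14.6-fold for Wnt10b than the floor of 3 counts in each of the other 2 femur libraries. With S15 kept at its value these bounds were 5.02, 18.1, 20.6 and 11.4-fold. Wnt7a was called without S15 (adjusted p = 0.00621) and had an adjusted p of 0.513 with S15, whose 2.95 CPM of Wnt7a was near the lowest mandible value of 3.32 CPM. Wnt9a and Wnt3a were also called without S15 (adjusted p = 0.0073 and 0.0232). In that fit Wnt7a, Wnt9a and Wnt3a passed the filter through the mandible libraries alone, so their direction was fixed and the calls are no support.

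Ligands under the filter were Wnt1, Wnt2, Wnt2b, Wnt3, Wnt7b, Wnt8a, Wnt8b and Wnt9b. Wnt2b had 0, 7 and 0 counts in S13, S15 and S18 and 0, 73 and 149 counts in S16, S19 and S23, so that it had no count in 1 mandible library and lay above the femur libraries in the other 2. Wnt8a, Wnt9b and Wnt2 had counts only in S15 (27, 12 and 4 counts). Wnt7b, Wnt1, Wnt3 and Wnt8b had counts in S15 (39, 8, 7 and 6 counts) and S19 (7, 9, 8 and 6 counts) and none in the other 4 libraries. A count of 0 allows up to 0.133 to 0.172 CPM in these libraries, counting error only. Several ligands are neighbours in the genome. Wnt3a and Wnt9a lie 16175 bases apart on chromosome 11 and Wnt6 and Wnt10a 6193 bases apart on chromosome 1. All 4 had log2 fold changes above 1, as did every tested ligand, so this is not particular to neighbours. Wnt9b and Wnt3 lie 24328 bases apart on chromosome 11, and both were under the filter. Wnt10b and Wnt1 lie 11706 bases apart on chromosome 15, and among the mandible libraries Wnt10b had counts in all 3 and Wnt1 in S19 alone.

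**Figure D4:**
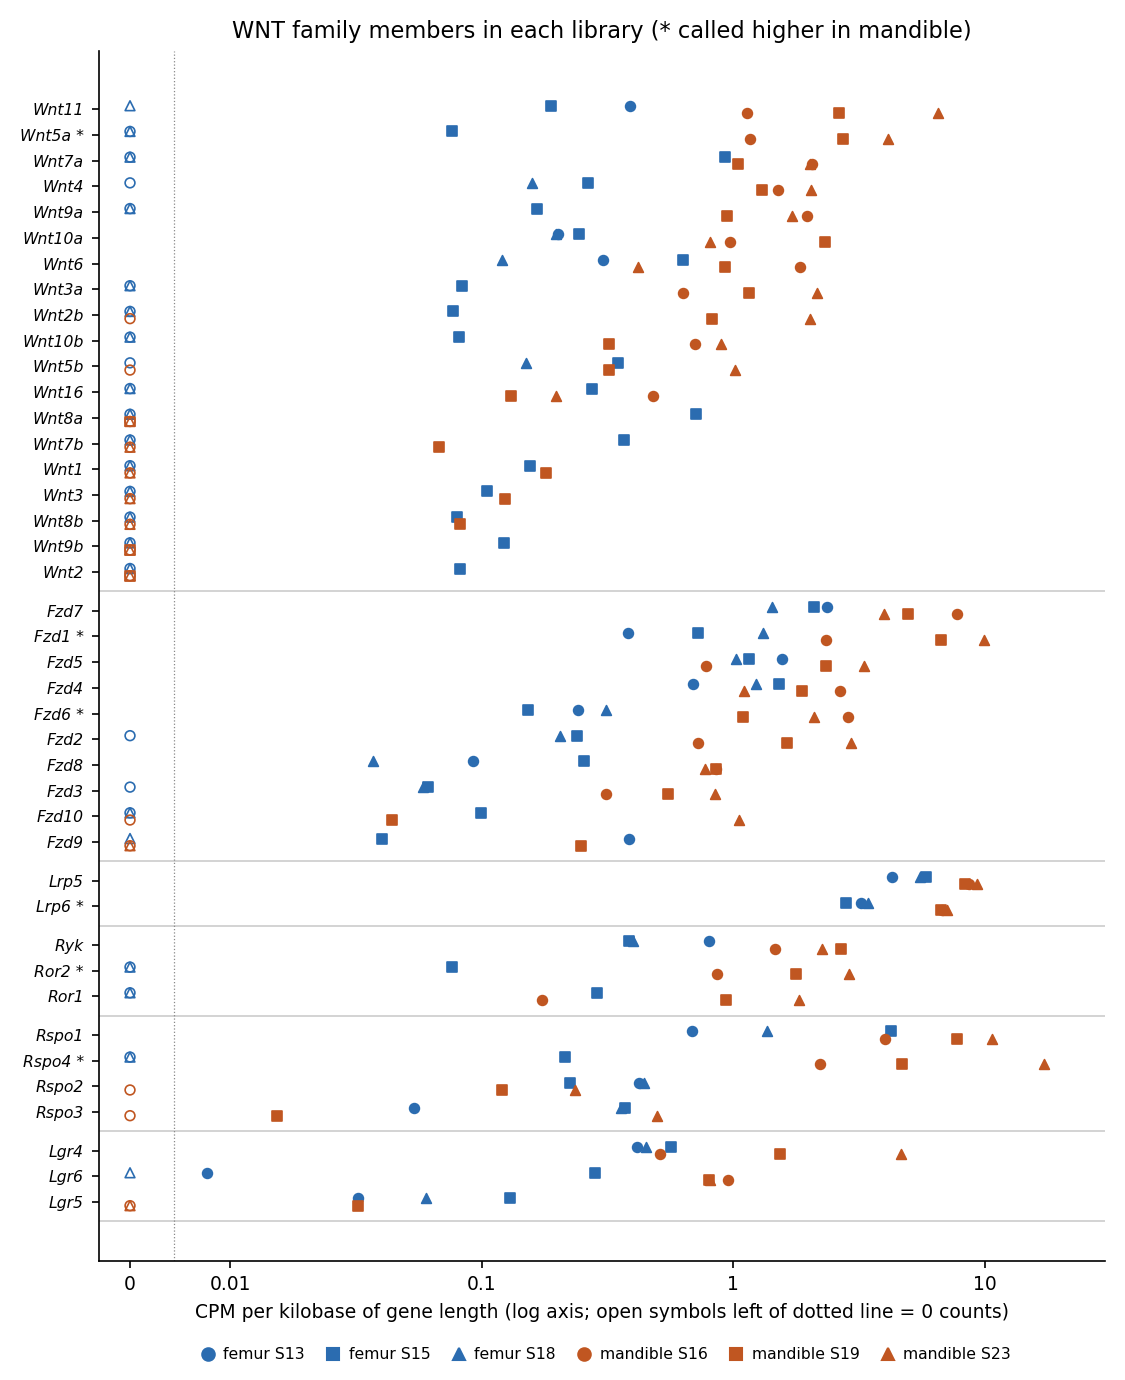
CPM per kilobase of gene length (log axis) of all 41 members in each library, with blue for the femur, orange for the mandible and the symbol giving the library. Open symbols at the left stand for 0 counts. Lrp5 and Lrp6 have the highest femur means, and the 7 lowest ligands have counts in S15 or S19 alone.

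Frizzled receptors, which bind the WNT ligands at the cell surface, were measured in all libraries, and 8 of 10 were tested. Fzd1 was at 1.602, 3.04 and 5.52 CPM in S13, S15 and S18 and at 9.86, 28.1 and 41.7 CPM in S16, S19 and S23. The sites did not overlap, and both varied more than 3-fold within themselves. Fzd1 rose with a log2 fold change of 2.96 ± 0.61 (SE, adjusted p = 0.0157), and missed the threshold without S13, S19 or S23 (adjusted p up to 0.0873, log2 fold change 2.43 to 3.51 over all fits that left out 1 library). It is a gene of 1 exon at chr5:4753839-4758035 on the minus strand. Fzd6, a frizzled known from planar cell polarity, was at 1.16, 0.737 and 1.502 CPM in the femur and 13.8, 5.27 and 10.1 CPM in the mandible, with no overlap. It rose with a log2 fold change of 3.10 ± 0.67 (SE, adjusted p = 0.0204). S15 was the one library that could be left out of Fzd6 with the call kept, and the adjusted p reached 0.0872. Fzd6 lies at chr15:39006034-39038188 on the plus strand and shares 152 exonic bases with Gm26704 on the other strand.

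Fzd7 was at 10.7, 9.54 and 6.49 CPM in the femur and at 35.1, 22.4 and 17.96 CPM in the mandible. It did not overlap between sites and narrowly missed the threshold (log2 fold change 1.5 ± 0.39 SE, adjusted p = 0.0516). Fzd3 (log2 fold change 3.80, adjusted p = 0.0840), Fzd2 (3.55, adjusted p = 0.131) and Fzd8 (2.69, adjusted p = 0.163) had no overlap either. Fzd5 (0.78, adjusted p = 0.548) and Fzd4 (0.71, adjusted p = 0.569) had overlapping values. Fzd5 was at 10.8, 8.02 and 7.07 CPM in the femur and 5.40, 16.2 and 22.8 CPM in the mandible. Fzd4, the receptor of Norrin, was at 4.64, 10.2 and 8.26 CPM in the femur and 17.9, 12.6 and 7.44 CPM in the mandible, where S23 was the lowest library. The exons of Fzd5 share 1233 bases with Gm38058 on the other strand. The 2 frizzled genes under the filter were Fzd9, with 16, 2 and 0 counts in the femur and 0, 12 and 0 in the mandible, and Fzd10, with 0, 7 and 0 counts in the femur and 0, 3 and 60 in the mandible.

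The make-up of the frizzled total differed in values between libraries. Fzd4, Fzd5 and Fzd7 held 80.7, 75.3 and 65.7% of frizzled CPM per kilobase in S13, S15 and S18, and 61.2, 45.2 and 32.2% in S16, S19 and S23. The 3 mandible shares lay below the 3 femur shares. Fzd1 held 6.70, 11.4 and 23.4% in the femur and 12.8, 33.0 and 38.2% in the mandible, and these ranges overlapped. Shares sum to a fixed total, the genes grouped here were chosen after their values were seen, and the difference was not tested.

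**Figure D5:**
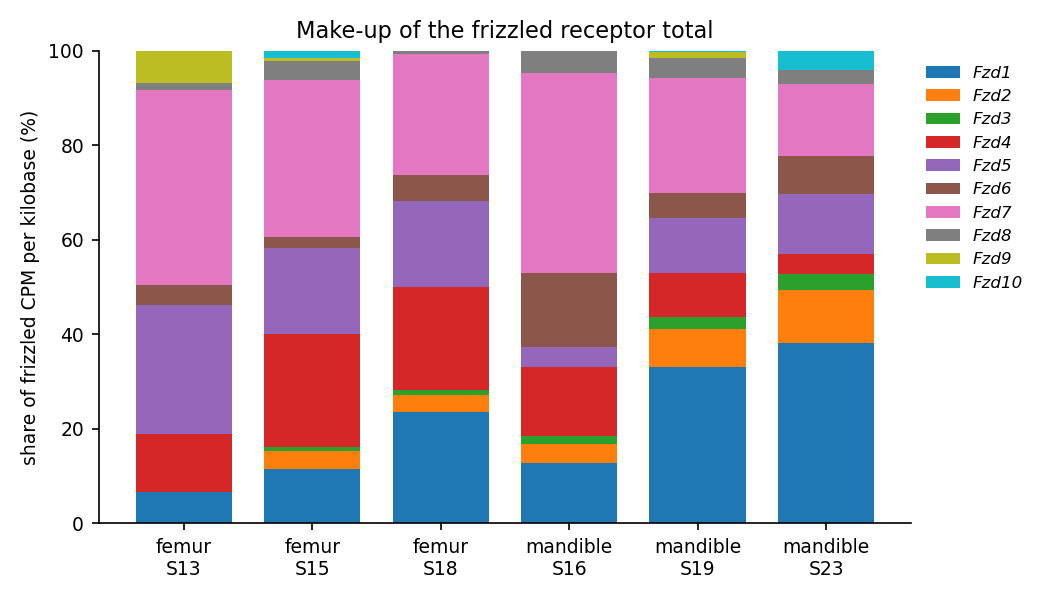
Share of each frizzled gene in the summed frizzled CPM per kilobase (percent, y axis) in each library. Fzd4, Fzd5 and Fzd7 together hold 65.7 to 80.7% in the femur libraries and 32.2 to 61.2% in the mandible libraries.

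The co-receptors Lrp5 and Lrp6, which act beside the frizzleds in the β-catenin branch, were the family's highest genes in the femur and varied little between replicates. Lrp6 was at 43.9, 38.6 and 46.9 CPM in the femur and at 92.2, 91.6 and 97.1 CPM in the mandible, with a log2 fold change of 1.12 ± 0.23 (SE, adjusted p = 0.0175). With a correction for gene length in each library, chosen after the data were seen, the log2 fold change of Lrp6 was 0.38 (adjusted p = 0.635). Its call was lost in each of the 6 fits without 1 library, where the adjusted p was 0.0245 to 0.0958 and the log2 fold change without S15 was 0.999. Lrp6 lies at chr6:134446476-134566965 on the minus strand. Lrp5 was at 41.5, 56.9 and 53.7 CPM in the femur and 84.0, 81.2 and 90.7 CPM in the mandible. It did not overlap between sites and missed the threshold (log2 fold change 0.75 ± 0.24 SE, adjusted p = 0.123), and the length correction brought it to 0.17.

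Ror2, the receptor tyrosine kinase that binds WNT5A, was at 0, 0.323 and 0 CPM in the femur and at 3.65, 7.55 and 12.3 CPM in the mandible, without overlap. With 0 counts in S13 and S18 it could pass the filter only through the mandible libraries, so its direction was fixed. It rose with a log2 fold change of 6.08 ± 1.32 (SE, adjusted p = 0.0205), and with S13 and S18 at the floor the mandible mean was at least 37.9-fold above the femur mean with S15 and at least 52.5-fold without it. The call was lost without S13, S18, S19 or S23 (adjusted p up to 0.109). Ror2 lies at chr13:53109312-53286124 on the minus strand. Ryk was at 3.65, 1.75 and 1.81 CPM in the femur and 6.66, 12.2 and 10.2 CPM in the mandible (log2 fold change 2.01 ± 0.60 SE, adjusted p = 0.0894), again without overlap. Ror1 had 0 counts in S13 and S18 and 36 counts in S15, which put S15 above the mandible library S16 (20 counts). With S15 its log2 fold change was 3.33 (adjusted p = 0.343), and without it Ror1 was called (adjusted p = 0.0144) at a mandible mean at least 37.9-fold above the floor (21.5-fold without S23 too, and 8.66-fold with S15 kept). In the fit without S15 the filter fixed the direction of Ror1, so that call is no support.

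Of the 4 R-spondins, which potentiate the signal, Rspo4 was called. It was at 0, 0.507 and 0 CPM in the femur and at 5.25, 11.2 and 40.8 CPM in the mandible. As for Wnt5a, it could pass the filter only through the mandible libraries, which fixed its direction. It rose with a log2 fold change of 6.73 ± 1.26 (SE, adjusted p = 0.00944), within the error of that of Wnt5a, and S23 alone held more than the other 2 mandible libraries together. Without S23 its log2 fold change was 5.47 and the call was lost (adjusted p = 0.0861). With S13 and S18 at the floor of 3 counts each, the mandible mean was at least 71.0-fold above the femur mean with S15, at least 128-fold without S15 and at least 55.0-fold without S15 and S23. Rspo4 lies at chr2:151842927-151874668 on the plus strand. Rspo1 was at 1.33, 8.20 and 2.65 CPM in the femur and 7.81, 15.003 and 20.8 CPM in the mandible. Its sites overlapped through S15 alone, with a log2 fold change of 1.83 ± 0.68 (SE, adjusted p = 0.179), and without S15 it was called (2.82, adjusted p = 0.0228). Rspo2 and Rspo3 were low everywhere, at 2.25 CPM or less in each library, and not called (log2 fold change -1.61 for Rspo2 and -0.61 for Rspo3, adjusted p of 0.715 and 0.936). Both had 0 counts in S16. The exons of Rspo3 share 404 bases with Gm48159 on the other strand.

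Of the R-spondin receptors, Lgr4 was at 2.43, 3.32 and 2.65 CPM in the femur and 3.002, 9.07 and 27.2 CPM in the mandible. Its lowest mandible library, S16, lay within the femur range, and the difference was not called (log2 fold change 2.22 ± 0.73 SE). With 1 library left out it ran from 2.69 (adjusted p = 0.0281) without S16 to 1.05 (adjusted p = 0.571) without S23. Lgr6 was at 0.055, 1.94 and 0 CPM in the femur and at 6.55, 5.51 and 5.55 CPM in the mandible, where the 3 libraries lay close together. The sites did not overlap, and the log2 fold change was 3.13 ± 1.38 (SE, adjusted p = 0.286). Without S15 Lgr6 was called (adjusted p = 0.00707), at a mandible mean at least 39.4-fold above the floor (7.89-fold with S15 kept). In that fit Lgr6 too passed the filter through the mandible libraries alone, so its direction was fixed and the call is no support. Lgr5, widely used as a stem cell marker, was under the filter with 6, 29 and 14 counts in the femur and 0, 7 and 0 counts in the mandible.

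Levels of different genes can be compared per kilobase of gene length. In the femur the order began with Lrp5 at 5.21 CPM per kilobase ± 0.83 (SD, n = 3), Lrp6 at 3.15 ± 0.31, Rspo1 at 2.09 ± 1.88 and Fzd7 at 1.96 ± 0.48. Lrp5 and Lrp6 did not overlap in either site, nor did Lrp6 and Fzd7 in the femur, while the femur values of Rspo1 ran from below Fzd7 to above Lrp6. In the mandible the order was Lrp5 at 8.76 ± 0.50, Rspo4 at 8.04 ± 8.03, Rspo1 at 7.49 ± 3.35, Lrp6 at 6.85 ± 0.22, Fzd1 at 6.32 ± 3.81, Fzd7 at 5.55 ± 1.97, Wnt11 at 3.43 ± 2.78 and Wnt5a at 2.68 ± 1.48. Neighbours in this order did not differ beyond their spread. Among the mandible libraries S23 was the highest for 19 of the 30 tested members, S16 for 8 and S19 for 3. S23 was the highest for 38.4% of all tested genes and for 84.3% of the 702 genes called higher. S23 was also the one library with Xist, the RNA that coats the inactive X chromosome, at 1441 CPM against 0.553 CPM or less elsewhere, and the one without counts of Uty, Kdm5d, Ddx3y or Eif2s3y, which lie on the Y chromosome. All femur libraries, S16 and S19 had counts of these Y-linked genes, so the sites were not balanced for them. The part of sex in the differences between sites was not tested.

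Beyond the ligands and receptors, 77 other genes of the pathway were in 7 lists, 69 were tested, 20 were called higher and 0 lower, beside 3.88% and 1.3% of all tested genes, with a median log2 fold change of 0.94. At an unadjusted p under 0.05 there were 31 higher and 1 lower. Without S19 or without S23 the calls were 13. WNT antagonists, most of them secreted proteins that bind WNTs or LRP5 and LRP6, had 7 of 10 tested genes called higher: Sfrp1, Sfrp2, Sfrp4, Wif1, Dkk2, Dkk3 and Kremen1, a membrane receptor of DKK proteins. Sfrp2, which binds WNT proteins, was at 0, 0.0921 and 0 CPM in S13, S15 and S18 and at 70.6, 158 and 192 CPM in S16, S19 and S23 (adjusted p = 1.35e-05), with 2 counts in the femur in all, too few for a stable fold. Wif1, a WNT inhibitor, was at 1.10, 1.61 and 1.10 CPM in the femur and 45.4, 67.0 and 68.8 CPM in the mandible (5.56 ± 0.37 SE, adjusted p = 1.35e-05). Dkk3 rose too (log2 fold change 7.81, adjusted p = 0.000355), and the median of the 10 tested antagonists was 4.58. Draxin, of the same list, was the 1 gene lower at an unadjusted p under 0.05, with every mandible library below every femur library and no call (log2 fold change -1.98 ± 0.75 SE, adjusted p = 0.198). In the mandible the 15 antagonists summed to 242 to 516 CPM and the 19 ligands to 46.0 to 104 CPM. Neither sum is scaled by gene length, so they do not compare numbers of transcripts.

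The genes that carry the signal inside the cell gave other values. Of 20 signal transduction genes 0 were called by edgeR and 1 had an unadjusted p under 0.05, with a median log2 fold change of 0.29. The values were 0.29 for Ctnnb1, which encodes β-catenin (adjusted p = 0.675), and 0.30 for the casein kinase gene Csnk1a1 (adjusted p = 0.686). WNT secretion had 0 of 2 genes called and 0 at an unadjusted p under 0.05. Wls, which carries WNTs to the cell surface, was at 71.1, 57.2 and 92.9 CPM in the femur and 91.0, 82.1 and 55.0 CPM in the mandible (log2 fold change 0.04, adjusted p = 0.972). Porcn, the acyltransferase that attaches the lipid, stayed at 2.92 CPM or less (1.63, adjusted p = 0.673).

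Among TCF/LEF factors and their cofactors 5 of 12 were called higher, with Tcf7l1 (log2 fold change 4.75, adjusted p = 0.00528), Tcf7l2 (2.34, adjusted p = 0.0188) and Pygo1 (4.32, adjusted p = 0.0241) having the smallest p, and the abundant corepressor genes Tle3 (0.69, adjusted p = 0.223) and Tle4 (0.08, adjusted p = 0.941) were not called. Feedback and target genes had 2 of 10 tested genes called higher, Ccn4 (7.67, adjusted p = 0.000106) and Nkd2 (2.81, adjusted p = 0.0476). Axin2, the usual reporter of β-catenin signalling, was at 7.07, 5.67 and 7.60 CPM in the femur and 10.1, 8.17 and 16.4 CPM in the mandible, without overlap and not called (0.77 ± 0.46 SE, adjusted p = 0.486). Myc, the most abundant of this list, was at -0.51 (adjusted p = 0.448), with every mandible library below every femur library and no call. Planar cell polarity genes had 5 of 12 tested genes called higher, led by Celsr1 (2.23, adjusted p = 0.00158), Ptk7 (3.32, adjusted p = 0.00405) and Daam2 (3.13, adjusted p = 0.00472). The most abundant of the list, Daam1 (-0.46, adjusted p = 0.406) and Scrib (-0.17, adjusted p = 0.878), were not called. For Daam1 every mandible library lay below every femur library. The last list held Ndp, Tspan12, Reck and Adgra2. Of its 3 tested genes, Adgra2 was called higher (2.99, adjusted p = 0.00436), and Reck was not (1.41, adjusted p = 0.253).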

How the data were processed

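RNA of 6 monocyte libraries, 3 per skeletal site, was analysed. Per the labels and methods, reads sequenced from both ends were trimmed by the authors (Trimmomatic), aligned to GRCm38 (HISAT2 2.1.0) and summed per gene with featureCounts, whose version and settings for strand and multi-mapping are not given in the sources used here. The deposited table holds raw counts and, in another column, the gene length in bases. Intervals in the table lay inside the GENCODE M21 gene for 2979 of 52029 shared genes and 3 of 41 members. Most thus did not match GRCm38 positions, although the labels and methods name GRCm38, and the reason was not tested. Positions and exon overlaps were therefore read from M21 (GRCm38) by Ensembl identifier. The overlaps given may differ from those in the annotation used for counting.

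The test over all genes was run on the counts with edgeR 4.0.16 under R 4.3.3, using filterByExpr with a minimum count of 10, TMM and the quasi-likelihood test without covariates, with Benjamini-Hochberg adjustment. Genes were called at an adjusted p under 0.05 and at least 2-fold change. SE is the size of the log2 fold change divided by the square root of F. Log2 CPM of single members was also compared by an exact permutation test, two-sided. Members and lists were chosen with earlier results of these data known. Values in every library were given for called members, Wnt5a and the 2 members of each class with the highest mean CPM per kilobase, and for others named after their values were seen (Fzd4, Fzd5, Sfrp2, Wif1, Wls, Axin2). In pathway lists up to 3 called genes with the smallest p and the 2 with the highest CPM were named, and Axin2 and Draxin were added after their values were seen. Bases after the promoter start were left out. Other choices tried were limma-voom (limma 3.58.1), DESeq2 1.42.0, the exact test of edgeR, other scalings, filters, thresholds and prior counts, and each library left out. A loess correction (span 0.4) for gene length was chosen after the data were seen. The fit was tested on simulated data.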

Additional observations from a re-analysis of the deposited data

How the results depend on the processing

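The 6 members called higher became 16 with DESeq2, 15 with edgeR's exact test, 1 with limma-voom (Lrp6), 16 with every gene that had a count, and 2 at an adjusted p under 0.01. Calls over all genes, both directions together, were 938, and 1548, 1468, 753, 1590 and 445 in these fits. The members called were 1 to 11 with 1 library left out, the extremes being without S23 and without S15. The median log2 fold change of 2.67 became 3.04 with limma-voom, 1.97 with every gene that had a count, 2.99 with a mean of at least 1 CPM and 1.68 with at least 10 counts in every library, and 2.34 (without S23) to 3.23 (without S15, where fitted values of genes at 0 depend on the prior count) with 1 library left out. The 20 pathway genes called higher became 13 (without S19 or S23) to 22 (without S15) with 1 library left out, and 14 to 24 with the other choices. No member was called lower in any of these fits. The filters change which genes are tested, and for the others the cause was not tested. Of 216 other values of single members, 172 kept their direction and side of the threshold, 25 fell below it, 19 passed it and 0 reversed. Wnt5a was called in 15 of 17 fits, the exceptions being limma-voom (adjusted p = 0.059) and the filter of 10 counts in every library, where it was not tested. No paired analysis was possible because the labels give the sites no shared replicate numbers. Depth limits the low genes: in the femur 3 counts equal 0.133 to 0.166 CPM, and 14 of 19 ligands were at 0 in both S13 and S18.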
